A study of Mus musculus with 14 samples.

Results

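The genes described here encode the non-collagen proteins of the extracellular matrix and the proteases that cut it: laminins, nidogens and perlecan, elastic fibre proteins, matrix glycoproteins, proteoglycans, matrix metalloproteinases (MMPs) with their tissue inhibitors (TIMPs), and the ADAMTS proteases with their ADAMTS-like relatives. They were picked by a match to gene symbols, which uses no measured value, but the match was set with earlier results of these data known. The symbols matched 63 of the 13303 genes in either of the deposited tables, with 62 of 13219 in the experiment with viral vectors and 8 of 1230 in the experiment with knock-out mice.

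Bulk RNA sequencing of whole hearts was used to ask what CTRP9, a secreted glycoprotein encoded by C1qtnf9, does to the heart of mice on a high-fat diet (HFD). All mice were male C57BL/6J per the study's methods, started a diet with 60% of its energy from fat at 7 to 9 weeks of age and were kept on it for 12 weeks. In the first experiment, 4 hearts given AAV-CTRP9 were compared with 3 hearts given AAV-Luc, at 1e12 viral genomes each, where AAV9 carried either C1qtnf9 or luciferase under the troponin T promoter, so that the vector's own product is driven in cardiomyocytes. In the second, 4 CTRP9 knock-out (KO) hearts were compared with 3 hearts of wild-type (WT) littermates, without a vector. The experiments share no hearts. Levels in the AAV experiment are CPM, read counts scaled to the depth of the library, and those in the KO experiment are read counts divided by the authors' factor for each library.

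The extracellular matrix of the heart holds its cells in place and passes force between them. Basement membranes, sheets of laminin, type IV collagen, nidogen and perlecan, surround each cardiomyocyte and underlie the endothelium, while fibronectin, elastic fibres and small proteoglycans lie with the fibrillar collagens in the interstitium, which is largely made by fibroblasts. MMPs and ADAMTS proteases cut these proteins, and TIMPs block the proteases.

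Depth and labels were checked first. Scaled library totals were 23626917 to 28509220 in AAV-CTRP9 hearts and 26342180 to 30262264 in AAV-Luc hearts, and library totals were 15587701 to 18959587 reads in KO hearts and 14978278 to 18377715 reads in WT hearts. C1qtnf9 had 109, 67.0, 44.3 and 59.6 CPM in the AAV-CTRP9 hearts, against 26.3, 18.8 and 16.1 CPM in the AAV-Luc hearts, without overlap. In the KO experiment it had 3 reads in all KO hearts together and 481 to 498 reads in each WT heart. In AAV-Luc heart 1, deviations of genes from their mean over the hearts ran with GC content (Spearman's rho 0.52 across genes, which are not independent replicates, against -0.27 to -0.11 in the other hearts). Xist, the RNA of the inactive X chromosome of females, had 851 reads in the library WT A, 147 in WT B and 47 in KO D, and 0 to 7 reads in the other libraries of that experiment, although male mice are stated. The values that moved most without 1 of these libraries are also given without it.

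In hearts given AAV-CTRP9, 12 of the 62 members had lower levels than in hearts given AAV-Luc at an unadjusted p under 0.05, with log2 fold changes between -0.75 and -0.21. They were the glycoprotein genes Sparc, Thbs1, Thbs3 and Fn1, the elastic fibre genes Eln, Emilin2 and Fbln5, the proteoglycan gene Bgn, the basement membrane gene Nid1, the protease genes Mmp2 and Adamts2 and the inhibitor gene Timp2. The 4 with higher levels, the laminin genes Lamb2 and Lama5, the matricellular gene Sparcl1 and the inhibitor gene Timp4, are a share near that of all genes. None of the 62 members passed an adjusted p of 0.05 in limma with Benjamini-Hochberg adjustment, where 0.0151% of all genes (2 of 13219) did. The 12 lower members are 19.4%, where 4.36% of all genes were lower at an unadjusted p under 0.05, and the 4 higher ones 6.45%, where 4.3% of all genes were higher. The median log2 fold change, AAV-CTRP9 minus AAV-Luc, was -0.12 over the members and 0.03 over all genes, and 66.1% of members had a value below 0, as did 43% of all genes. In 7 members every AAV-CTRP9 heart lay below every AAV-Luc heart (11.3%, where 4.54% of all genes did so) and in 4 every AAV-CTRP9 heart lay above (6.45%, where 4.49% of all genes did so). In bulk tissue, fewer cells of a type and less RNA per cell cannot be told apart.

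**Figure D1:**
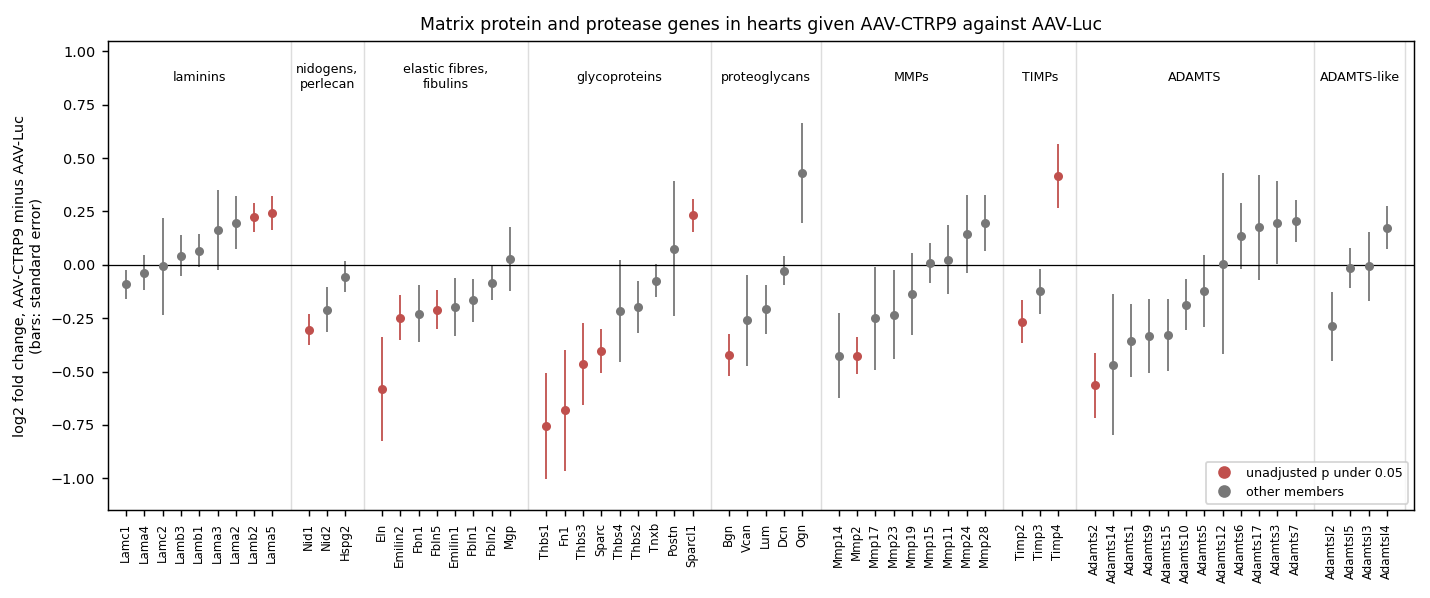
Log2 fold change (AAV-CTRP9 minus AAV-Luc) of each of the 62 measured members on the vertical axis, grouped by protein class along the horizontal axis, with standard errors as bars and members at an unadjusted p under 0.05 in red. Of the red points, 12 lie below 0 and 4 above, and the laminins are the only class drawn with 2 red points above 0.

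The promoters of 4 of the basement membrane and proteoglycan genes are shown because these genes stood at opposite ends of the comparison: Bgn and Nid1 among the lowest p-values of the members with lower levels, Lamb2 and Lama5 among those with higher levels. Each line holds the 250 bases before the gene's start in RefSeq, 5′ to 3′ on the gene's own strand on GRCm38.p6, and capitals mark matches to the letters of the GC box (GGGCGG) or the CCAAT box (CCAAT), read on both strands.
Bgn, chrX:73483351-73483600, plus strand: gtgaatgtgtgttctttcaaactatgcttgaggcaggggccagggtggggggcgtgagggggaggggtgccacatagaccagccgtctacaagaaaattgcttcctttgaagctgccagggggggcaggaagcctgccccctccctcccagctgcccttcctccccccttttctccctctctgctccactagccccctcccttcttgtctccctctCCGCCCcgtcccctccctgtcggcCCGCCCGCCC
Nid1, chr13:13437352-13437601, plus strand: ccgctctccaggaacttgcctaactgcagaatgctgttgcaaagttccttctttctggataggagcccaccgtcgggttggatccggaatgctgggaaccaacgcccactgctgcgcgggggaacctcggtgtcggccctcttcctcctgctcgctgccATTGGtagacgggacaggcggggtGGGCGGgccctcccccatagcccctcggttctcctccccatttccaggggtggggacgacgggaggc
Lamb2, chr9:108479612-108479861, plus strand: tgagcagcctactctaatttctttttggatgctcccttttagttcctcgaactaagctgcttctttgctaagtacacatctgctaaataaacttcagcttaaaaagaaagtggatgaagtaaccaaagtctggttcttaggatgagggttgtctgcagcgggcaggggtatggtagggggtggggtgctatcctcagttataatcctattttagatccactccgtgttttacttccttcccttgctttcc
Lama5, chr2:180225860-180226109, minus strand: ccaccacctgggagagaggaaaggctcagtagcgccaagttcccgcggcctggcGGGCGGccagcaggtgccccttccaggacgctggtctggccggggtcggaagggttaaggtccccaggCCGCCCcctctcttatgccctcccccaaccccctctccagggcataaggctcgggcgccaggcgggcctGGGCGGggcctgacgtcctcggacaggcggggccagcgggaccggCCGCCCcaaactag

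Bgn had 3 matches to the GC box, the last 2 of which overlap, Lama5 had 4 and Nid1 had 1 together with 1 CCAAT box, while the Lamb2 window held none of these letters. The windows of Sparc, a lower member, and Timp4, a higher one, are not printed and held none of them either. A GC box was found in 65.1% of the 43 members with a RefSeq promoter and in 32.7% of all 32851 promoters of that length, and the median GC content of these windows was 62.8% and 52.4%. A CCAAT box was found in 20.9% of the members' promoters against 33.8% of all, a TATA box (TATAAA) in 11.6% against 12.4%, and the AP-1 letters TGANTCA in 2.33% against 6.75%. Members lower and higher in AAV-CTRP9 hearts were both among those with a GC box. These matches describe letters in a window and not bound sites.

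Laminins are trimers of an alpha, a beta and a gamma chain and form the first sheet of a basement membrane. Lamb2, the beta 2 chain, had 149, 147, 137 and 142 CPM in the AAV-CTRP9 hearts, against 123, 128 and 119 CPM in the AAV-Luc hearts, a log2 fold change of 0.22 (SE, the standard error, 0.07; adjusted p = 0.432 in limma). Lama5, the alpha 5 chain, had 92.0, 95.6, 89.8 and 103 CPM in the AAV-CTRP9 hearts, against 81.8, 75.0 and 84.3 CPM in the AAV-Luc hearts, a log2 fold change of 0.24 (SE 0.08, adjusted p = 0.45 in limma). In both genes all AAV-CTRP9 hearts lay above all AAV-Luc hearts. The other 7 laminin genes had log2 fold changes between -0.09 and 0.20 and overlapped between the groups, among them Lamc1, the gamma 1 chain that most laminins share, with 100.45 ± 1.99 CPM (SD, n = 4) in AAV-CTRP9 hearts and 107 ± 5.54 CPM (SD, n = 3) in AAV-Luc hearts. Lama2, the alpha 2 chain of the cardiomyocyte's basement membrane, had 45.2 ± 0.986 CPM (SD, n = 4) in AAV-CTRP9 hearts and 40.0 ± 8.86 CPM (SD, n = 3) in AAV-Luc hearts, where heart 1 was low at 32.0 CPM. Its log2 fold change of 0.20 became 0.05 without that heart.

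Nidogens link laminin to type IV collagen, and perlecan is the large heparan sulfate proteoglycan of the same sheet. Nid1 had 64.5, 68.8, 67.4 and 69.1 CPM in the AAV-CTRP9 hearts, against 78.1, 85.0 and 86.9 CPM in the AAV-Luc hearts, a log2 fold change of -0.30 (SE 0.07, adjusted p = 0.297 in limma). Nid2 had 11.9, 13.1, 12.1 and 13.0 CPM in the AAV-CTRP9 hearts, against 13.8, 13.1 and 16.7 CPM in the AAV-Luc hearts, a log2 fold change of -0.21 (SE 0.10). Both nidogens were thus lower in every AAV-CTRP9 heart than in any AAV-Luc heart, though the highest AAV-CTRP9 heart (13.06 CPM) and the lowest AAV-Luc heart (13.13 CPM) nearly met in Nid2, which was at -0.11 without AAV-Luc heart 3. Hspg2, which encodes perlecan, had 287 ± 14.7 CPM (SD, n = 4) in AAV-CTRP9 hearts and 298 ± 13.2 CPM (SD, n = 3) in AAV-Luc hearts, and these ranges overlapped. The basement membrane genes therefore did not share one direction: 2 laminins were higher and Nid1 was lower at an unadjusted p under 0.05.

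Elastic fibres consist of elastin on a scaffold of fibrillin, to which fibulins and emilins bind. All 7 such genes had a log2 fold change below 0, with a median of -0.21, where 43% of all genes were below 0, and 3 of them were lower at an unadjusted p under 0.05 (Eln, Emilin2 and Fbln5), where 4.36% of all genes were. Eln, the elastin gene, had 21.9, 16.6, 17.1 and 15.8 CPM in the AAV-CTRP9 hearts, against 25.6, 17.1 and 42.5 CPM in the AAV-Luc hearts. Its log2 fold change of -0.58 (SE 0.24, adjusted p = 0.559 in limma) became -0.24 without AAV-Luc heart 3, which was the high one. Fbln5, a fibulin needed to assemble elastic fibres, had 10.3, 10.9, 9.65 and 9.62 CPM in the AAV-CTRP9 hearts, against 11.97, 11.17 and 11.92 CPM in the AAV-Luc hearts, without overlap and with a log2 fold change of -0.21 (SE 0.09). Emilin2 had a log2 fold change of -0.25 (SE 0.11) and Fbn1, which encodes fibrillin-1, of -0.23 (SE 0.13), or -0.07 without AAV-Luc heart 3. Mgp, which encodes an inhibitor of calcification and was grouped with them, had nearly equal levels, 25.8 ± 3.51 CPM (SD, n = 4) in AAV-CTRP9 hearts and 25.6 ± 5.76 CPM (SD, n = 3) in AAV-Luc hearts.

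The glycoproteins of the interstitium include fibronectin, a scaffold that cells grip through integrins, and matricellular proteins such as SPARC and the thrombospondins, which act on cells more than they bear load. Sparc had 155, 138, 143 and 171 CPM in the AAV-CTRP9 hearts, against 191, 182 and 232 CPM in the AAV-Luc hearts, a log2 fold change of -0.40 (SE 0.10, adjusted p = 0.358 in limma) with no overlap. Its close relative Sparcl1 stood on the other side, at 129, 136, 135 and 131 CPM in the AAV-CTRP9 hearts, against 110, 105 and 125 CPM in the AAV-Luc hearts, a log2 fold change of 0.23 (SE 0.08, adjusted p = 0.471 in limma), also with no overlap. Fn1, the fibronectin gene, had 23.5, 27.1, 22.7 and 22.2 CPM in the AAV-CTRP9 hearts, against 26.6, 28.5 and 73.45 CPM in the AAV-Luc hearts. AAV-Luc heart 3 thus stood far above every other heart, and the log2 fold change of -0.68 (SE 0.28, adjusted p = 0.559 in limma) became -0.21 without it. Over the 8 Fn1 transcripts in the table, which share reads, the log2 fold change ran from -1.03 to -0.68. Thbs1, which encodes an activator of latent TGF-beta, had 1.73, 2.12, 1.90 and 2.02 CPM in the AAV-CTRP9 hearts, against 2.45, 2.71 and 5.24 CPM in the AAV-Luc hearts. Its groups did not overlap, and its log2 fold change of -0.75 (SE 0.25, adjusted p = 0.465 in limma) became -0.41 without AAV-Luc heart 3. Fn1, Eln and Thbs1 stand among the example genes in a figure of the study on these same hearts, so their direction is not independent evidence. Thbs3 had a log2 fold change of -0.46 (SE 0.19), overlapped between the groups, and was at -0.30 without AAV-Luc heart 3 and -0.67 without heart 1. Postn, which encodes the fibrosis-linked periostin, had 12.9 ± 2.31 CPM (SD, n = 4) in AAV-CTRP9 hearts and 13.6 ± 7.58 CPM (SD, n = 3) in AAV-Luc hearts, and both the lowest and the highest of the 7 hearts were AAV-Luc hearts.

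**Figure D2:**
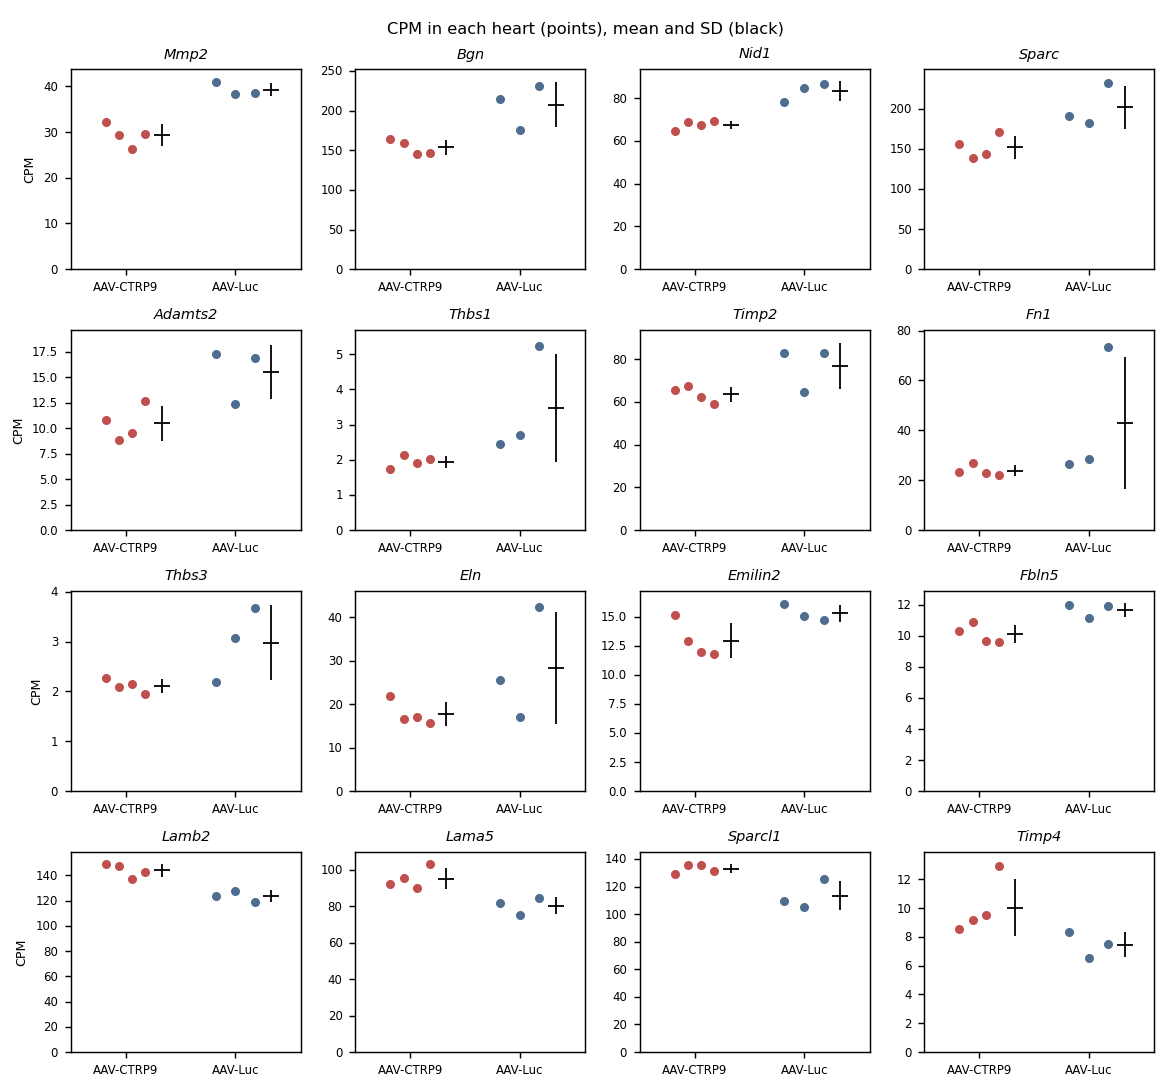
CPM of the 16 members at an unadjusted p under 0.05, 1 panel a gene, with each heart as a point (AAV-CTRP9 red, AAV-Luc blue) and the mean with its SD in black. Mmp2, Bgn, Nid1 and Sparc show 2 separate groups of hearts, while the AAV-Luc mean of Fn1, Eln and Thbs1 is raised by the single heart at 73.45, 42.5 and 5.24 CPM.

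Small leucine-rich proteoglycans bind collagen fibrils and set their thickness and spacing. Bgn, the biglycan gene, had 164, 159, 145 and 147 CPM in the AAV-CTRP9 hearts, against 214, 176 and 231 CPM in the AAV-Luc hearts, a log2 fold change of -0.42 (SE 0.10, adjusted p = 0.289 in limma) with no overlap. Dcn, which encodes the closely related decorin, differed little, with 194 ± 6.58 CPM (SD, n = 4) in AAV-CTRP9 hearts and 198 ± 8.12 CPM (SD, n = 3) in AAV-Luc hearts, a log2 fold change of -0.03 (SE 0.07). Ogn, the osteoglycin gene, had 56.1, 48.0, 50.1 and 45.5 CPM in the AAV-CTRP9 hearts, against 21.7, 47.0 and 49.3 CPM in the AAV-Luc hearts, so that its log2 fold change of 0.43 (SE 0.23) came with 1 low AAV-Luc heart, heart 1, and was 0.05 without it. Lum (lumican) and Vcan (versican) had log2 fold changes of -0.21 and -0.26 with overlapping groups, and Vcan one of -0.51 without AAV-Luc heart 1 and -0.13 without heart 3.

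Among the proteases, Mmp2 had the smallest p-value of all members. Mmp2 encodes gelatinase A, which cuts denatured collagen and type IV collagen, and lies on chromosome 8 of GRCm38 from 92827291 to 92853420. It had 32.1, 29.4, 26.3 and 29.6 CPM in the AAV-CTRP9 hearts, against 40.9, 38.4 and 38.6 CPM in the AAV-Luc hearts, a log2 fold change of -0.43 (SE 0.09, adjusted p = 0.181 in limma). The highest AAV-CTRP9 heart lay well below the lowest AAV-Luc heart. Mmp14, the membrane-bound protease that activates the product of Mmp2, had 10.2, 7.89, 8.35 and 6.58 CPM in the AAV-CTRP9 hearts, against 11.4, 7.96 and 14.5 CPM in the AAV-Luc hearts, with overlap, and a log2 fold change of -0.43 (SE 0.20), or -0.23 without AAV-Luc heart 3. The other 7 MMP genes had log2 fold changes from -0.25 to 0.20, none at an unadjusted p under 0.05. Mmp15, another membrane-bound MMP and the member of this class with the highest CPM, had 64.0 ± 5.40 CPM (SD, n = 4) in AAV-CTRP9 hearts and 63.7 ± 6.36 CPM (SD, n = 3) in AAV-Luc hearts.

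The 3 measured TIMP genes differed among themselves. Timp4, the inhibitor gene known for its expression in heart, had 8.54, 9.17, 9.54 and 12.9 CPM in the AAV-CTRP9 hearts, against 8.33, 6.57 and 7.51 CPM in the AAV-Luc hearts, a log2 fold change of 0.41 (SE 0.15, adjusted p = 0.524 in limma) with no overlap, and its second transcript in the table one of 0.20. Timp2, whose product both inhibits MMPs and takes part in the activation of gelatinase A, had 65.5, 67.2, 62.4 and 58.9 CPM in the AAV-CTRP9 hearts, against 83.0, 64.4 and 83.1 CPM in the AAV-Luc hearts, a log2 fold change of -0.27 (SE 0.10, adjusted p = 0.529 in limma) with overlap. Timp3, which binds to the matrix, had 103 ± 14.0 CPM (SD, n = 4) in AAV-CTRP9 hearts and 112 ± 5.78 CPM (SD, n = 3) in AAV-Luc hearts. Exons of Timp3 and Timp4 overlap those of Syn3 and Syn2 on the other strand, and no source used here says whether strand was used in counting. Syn2, like Timp4, was higher in AAV-CTRP9 hearts at an unadjusted p under 0.05. Other members also have exons that overlap a gene on the other strand, among them Nid1, Nid2, Fn1, Eln, Thbs1, Thbs3 and Fbn1.

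Among 12 ADAMTS genes, Adamts2 was the 1 at an unadjusted p under 0.05. Adamts2 encodes a protease that trims the ends of procollagens, and it had 10.8, 8.85, 9.54 and 12.7 CPM in the AAV-CTRP9 hearts, against 17.3, 12.4 and 16.9 CPM in the AAV-Luc hearts, a log2 fold change of -0.56 (SE 0.15, adjusted p = 0.392 in limma) and of -0.48 without AAV-Luc heart 1. One AAV-CTRP9 heart, at 12.7 CPM, lay just above the lowest AAV-Luc heart, at 12.4 CPM. Of the 12 genes, 7 had a value below 0 and 5 above, from -0.56 to 0.21, and the 4 ADAMTS-like genes, which lack a protease domain, lay between -0.29 and 0.17.

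Pairs of related members were set against each other within each heart, where library scaling cancels out. The pairs were chosen after their values were seen, so no test was made. Sparcl1 over Sparc was 0.829, 0.982, 0.944 and 0.770 in the AAV-CTRP9 hearts, against 0.575, 0.581 and 0.540 in the AAV-Luc hearts. Timp4 over Timp2 was 0.130, 0.136, 0.153 and 0.219 in the AAV-CTRP9 hearts, against 0.1003, 0.1019 and 0.0904 in the AAV-Luc hearts. Lama5 over Lama4, another endothelial alpha chain, was 2.38, 2.43, 2.55 and 2.56 in the AAV-CTRP9 hearts, against 2.13, 2.0 and 2.002 in the AAV-Luc hearts. In these 3 pairs all AAV-CTRP9 hearts lay above all AAV-Luc hearts. Bgn over Dcn was 0.791 ± 0.0393 (SD, n = 4) in AAV-CTRP9 hearts and 1.048 ± 0.168 (SD, n = 3) in AAV-Luc hearts, and Nid1 over Lamc1 was 0.672 ± 0.0297 (SD, n = 4) in AAV-CTRP9 hearts and 0.779 ± 0.0355 (SD, n = 3) in AAV-Luc hearts, both lower without overlap. Lamb2 over Lamb1 was 3.49 ± 0.152 (SD, n = 4) in AAV-CTRP9 hearts and 3.14 ± 0.344 (SD, n = 3) in AAV-Luc hearts, with overlap. Mmp2 over Timp2 also overlapped, at 0.463 ± 0.0398 (SD, n = 4) in AAV-CTRP9 hearts and 0.518 ± 0.0697 (SD, n = 3) in AAV-Luc hearts.

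**Figure D3:**
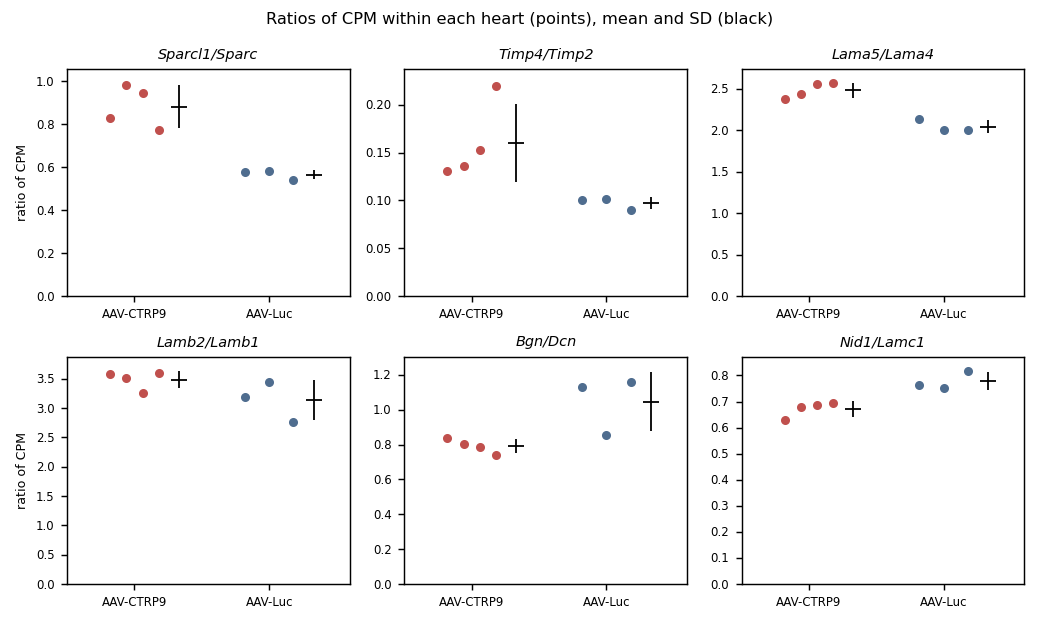
Ratios of CPM of 6 pairs of members within each heart, with hearts as points (AAV-CTRP9 red, AAV-Luc blue) and the mean with its SD in black, on axes that start at 0. Sparcl1/Sparc averages 0.881 in AAV-CTRP9 hearts and 0.565 in AAV-Luc hearts, and Lamb2/Lamb1 is the pair drawn here with overlapping groups.

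By level per length, the members ranged over a wide scale. Dcn was first with 111 CPM per kilobase in AAV-CTRP9 hearts and 113 CPM per kilobase in AAV-Luc hearts, followed by Sparc (71.9 and 95.3), Bgn (63.6 and 85.6), Sparcl1 (48.2 and 41.1) and Mgp (41.8 and 41.4, all in CPM per kilobase in that order of groups). Dcn therefore headed the order in both groups, while Sparc and Bgn stood closer to it in AAV-Luc hearts. The summed CPM of the 62 members was 2350 to 2487 in AAV-CTRP9 hearts and 2512 to 2735 in AAV-Luc hearts, without overlap. AAV-Luc heart 3 held the highest level of the 7 hearts for 37.1% of the members, where it did so for 15.5% of all genes, and AAV-Luc heart 1 for 27.4%, where it did so for 24.2% of all genes.

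Genes that process or bind this matrix were described from lists alongside the members. Of 17 measured genes that cross-link or assemble the matrix, 8 were lower at an unadjusted p under 0.05 (47.1%) and none higher, with a median log2 fold change of -0.27, where 4.36% of all genes were lower and 4.3% higher. Mfap4 and Mfap5, microfibril proteins, had log2 fold changes of -0.99 (SE 0.21) and -0.61 (SE 0.11), and Loxl1, an oxidase that cross-links elastin, of -0.40 (SE 0.09). Of 27 matrix receptors, 2 were lower (Cd44 and Itga11, 7.41%) and 1 higher (Itga8, 3.70%), near the shares of all genes, with a median of -0.05. Of 29 further glycoproteins and proteoglycans, 6 were lower (20.7%) and 1 higher, with a median of -0.07, and of 26 other proteases and inhibitors, 6 were lower (23.1%) and none higher, with a median of -0.11. Serpinh1, the collagen chaperone, had 63.5 ± 4.75 CPM (SD, n = 4) in AAV-CTRP9 hearts and 81.4 ± 10.5 CPM (SD, n = 3) in AAV-Luc hearts. None of these list genes passed an adjusted p of 0.05 in limma.

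Markers of cell types were counted in the same way, and not all of these lists differed between the groups. Mfap5, Dpt, Vwf, Vtn and Ddr2 stand both in a matrix list and in a marker list, so these lists are not independent. Of 12 fibroblast markers, 7 were lower in AAV-CTRP9 hearts at an unadjusted p under 0.05 (58.3%), with a median log2 fold change of -0.42. Of all genes, 4.36% were lower and 4.3% higher. The 7 were Cd248, Pi16, Mfap5, Dpt, Col1a1, Col1a2 and Col3a1. Pdgfra (0.13), Ddr2 (0.16), Tcf21 (-0.09), Scara5 (-0.04) and Gsn (-0.04) overlapped between the groups. The 12 markers summed to 691 to 741 CPM in AAV-CTRP9 hearts and 793 to 880 CPM in AAV-Luc hearts. Gsn made up most of that sum, with 463 CPM in AAV-CTRP9 hearts and 483 CPM in AAV-Luc hearts. Cd248, a marker of fibroblasts and pericytes, was 1 of the 2 genes of the whole table past the adjusted threshold (log2 fold change -0.75, adjusted p = 0.0419 in limma). The other was Lyz2, the lysozyme gene of myeloid cells (log2 fold change -0.67, adjusted p = 0.0354 in limma). Of 11 leukocyte markers, 7 were lower (63.6%), with a summed level of 263 to 305 CPM in AAV-CTRP9 hearts and 316 to 357 CPM in AAV-Luc hearts. Cx3cr1 made up most of that sum, with 194 CPM in AAV-CTRP9 hearts and 199 CPM in AAV-Luc hearts. Its log2 fold change was -0.03 (SE 0.09). Ptprc, at 0.25 (SE 0.45), was the 1 leukocyte marker above 0, and 10 were below. Cardiomyocyte markers summed to 28141 to 28874 CPM in AAV-CTRP9 hearts and 24959 to 27336 CPM in AAV-Luc hearts, with 2 of 12 higher at an unadjusted p under 0.05. Smooth muscle and pericyte markers summed to 1758 to 1889 CPM in AAV-CTRP9 hearts and 1953 to 2296 CPM in AAV-Luc hearts, with 2 of 11 lower and none higher. Des made up most of that sum, with 1182 CPM in AAV-CTRP9 hearts and 1456 CPM in AAV-Luc hearts, and without it the other 10 markers summed to 585 to 681 CPM in AAV-CTRP9 hearts and 553 to 678 CPM in AAV-Luc hearts, with a median log2 fold change of 0.05. Endothelial markers summed to 692 to 728 CPM in AAV-CTRP9 hearts and 704 to 744 CPM in AAV-Luc hearts, with 2 of 12 lower and 1 higher. Mesothelial and epicardial markers (1 of 8 measured) summed to 3.75 to 5.20 CPM in AAV-CTRP9 hearts and 3.61 to 9.68 CPM in AAV-Luc hearts, where heart 3 was the highest. Adipocyte markers (1 of 8 measured) and Schwann cell and nerve markers (4 of 6 measured) had no gene at an unadjusted p under 0.05. The part of cell type markers in the members' differences was not tested.

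Taken singly and without adjustment, a 2-sided exact permutation test over the 35 ways to split the hearts gave 0.0286, the smallest p it can give, for 8 of the 21 members named by rule (Mmp2, Bgn, Nid1, Sparc, Thbs1, Lamb2, Lama5 and Sparcl1). Of these 21, 16 were named for their unadjusted p in these same hearts, so this p adds no independent evidence. Over all 62 members 14.5% reached it, where 6.17% of all genes did. With AAV-Luc heart 1 left out, Nid1 (log2 fold change -0.35, adjusted p = 0.0288) and Mmp2 (-0.40, adjusted p = 0.0462) passed in limma, where 150 of all genes passed. DESeq2 on the recovered reads called Mmp2 (adjusted p = 0.00468) and Bgn (adjusted p = 0.0237), where it called 61 of all genes. The 12 members with lower levels at an unadjusted p under 0.05 became 7 without AAV-Luc heart 3, and 7 without either AAV-CTRP9 heart 3 or heart 4, and the 4 with higher levels became 7 without AAV-Luc heart 1. The counts over all genes moved too. With 1 heart left out, 437 to 783 genes were lower, against 577 with all hearts, and 312 to 1076 higher, against 569.

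In the KO experiment, 8 members were listed, 6 of them lower and 2 higher in KO hearts. That table was cut by the authors to transcripts whose unadjusted p, for these same hearts, was under 0.05, so the values describe the listed genes and are no test. The 7 listed members that were also measured in the AAV hearts are 11.3% of the 62, where 8.67% of all genes measured there were listed. Of all 1230 listed genes, 61.1% were lower and 38.9% higher in KO hearts, and the median log2 fold change, KO minus WT, was -0.30 over the 8 members and -0.23 over all listed genes. With DESeq2's own factors, taken from the listed genes, these medians were -0.19 and -0.11.

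Listed members of the interstitium were lower in KO hearts. Tnxb, which encodes tenascin-X, a protein that binds collagen fibrils, had 871, 848, 851 and 818 normalized counts in the KO libraries, against 1046, 996 and 1186 in the WT libraries, a log2 fold change of -0.35 (SE 0.08) with no overlap. Fn1 had 672, 728, 764 and 893 normalized counts in the KO libraries, against 807, 1381 and 783 in the WT libraries. Its log2 fold change of -0.38 (SE 0.18) became -0.06 without the library WT B, which held the high value, and -0.50 without WT A. Fmod, which encodes the collagen-binding proteoglycan fibromodulin, had 3, 7, 10 and 19 reads in the KO libraries, against 26, 25 and 10 reads in the WT libraries, too few for more than a coarse log2 fold change of -1.17 (SE 0.49). It became -0.85 without WT A, -1.08 without WT B and -1.68 without KO D.

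Hspg2, which encodes perlecan, was the listed member of the basement membrane. It had 6537, 5589, 6067 and 5178 normalized counts in the KO libraries, against 7029, 7225 and 6904 in the WT libraries, a log2 fold change of -0.27 (SE 0.08) with no overlap. Hspg2 and Tnxb were the 2 listed members whose groups did not overlap, or 2 of 8, where 66.9% of all listed genes had no overlap. Over all fits with 1 library left out, the log2 fold change stayed between -0.33 and -0.22 for Hspg2 and between -0.40 and -0.27 for Tnxb. With DESeq2's own factors, which also moved the median of all listed genes, Hspg2 was at -0.16 and Tnxb at -0.23. No laminin, nidogen, MMP or TIMP gene was listed.

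The listed proteases were all of the ADAMTS class and had both directions. Adamts1, which cuts versican, had 521, 324, 534 and 477 normalized counts in the KO libraries, against 261, 419 and 345 in the WT libraries, a log2 fold change of 0.44 (SE 0.18) that became 0.28 without WT A and 0.61 without WT B. Adamts9, which also cuts versican, had 236, 269, 312 and 271 normalized counts in the KO libraries, against 193, 247 and 208 in the WT libraries, a log2 fold change of 0.33 (SE 0.12) that became 0.26 without WT A and 0.44 without WT B. Both were higher on average in KO hearts, with overlapping groups. Adamts7, which cuts the cartilage matrix protein COMP, had 376, 297, 297 and 291 normalized counts in the KO libraries, against 432, 361 and 358 in the WT libraries, a log2 fold change of -0.28 (SE 0.11) that became -0.19 without WT A and -0.16 with DESeq2's own factors. Adamtsl4, an ADAMTS-like gene whose product binds fibrillin-1, had 684, 599, 691 and 621 normalized counts in the KO libraries, against 1000, 669 and 781 in the WT libraries, and its log2 fold change of -0.33 (SE 0.12) became -0.16 without WT A and -0.46 without WT B. Exons of Adamts7 and Adamts9 overlap other genes on the opposite strand.

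**Figure D4:**
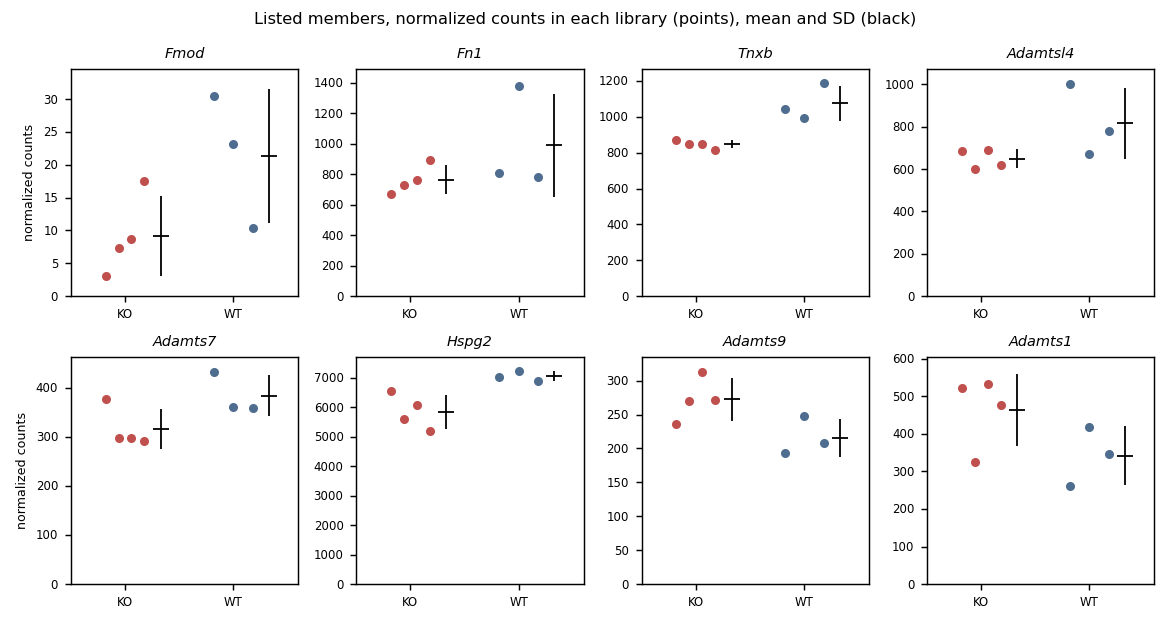
Normalized counts of the 8 members listed for KO against WT, 1 panel a gene, with each library as a point (KO red, WT blue) and the mean with its SD in black, on axes that start at 0. Tnxb and Hspg2 show groups that do not overlap, and Fn1 shows 1 WT library at 1381 above 6 libraries at 672 to 893.

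The 7 members with values in both experiments did not line up in one way. Fn1 was lower in AAV-CTRP9 hearts (-0.68) and lower in KO hearts (-0.38), each with 1 high control library behind much of the difference. Adamts1 was at -0.36 (SE 0.17) in the AAV comparison and 0.44 in the KO comparison, and Adamts9 at -0.33 (SE 0.17) and 0.33. Adamts7 was at 0.21 (SE 0.10) in the AAV comparison and -0.28 in the KO comparison, and Adamtsl4 at 0.17 (SE 0.10) and -0.33. Hspg2 was at -0.06 and -0.27, and Tnxb at -0.07 and -0.35. For 4 of the 7, the sign thus differed between the comparisons. Of all genes 43% were below 0 in the AAV comparison, and of all listed genes 61.1% were lower in KO hearts. The share of all genes whose sign differed was not counted, so 4 of 7 is no result about the members. None of the 4 with differing signs reached an unadjusted p under 0.05 in limma on the deposited log2 CPM of all 7 AAV hearts. With the same hearts, Adamts1 did with library totals as the only scaling and in DESeq2. Adamts7 and Adamtsl4 did with the trend with GC content removed. All 4 did without AAV-Luc heart 1. Without that heart more genes were called in the whole table too, with 150 past the adjusted threshold, against 2 with all hearts.

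Of all genes measured in the AAV hearts, 8.67% were listed for KO, and 61.1% of all listed genes were lower. Of the genes that cross-link or assemble the matrix, 2 were listed (11.8%), both lower (Bmp1 at -0.38 and Ltbp3 at -0.23). Of the matrix receptors, 5 were listed (18.5%). Itga5 was lower (-0.23), and Itga6 (0.27), Itgb1 (0.25), Cd47 (0.29) and Cd36 (0.17) were higher. Integrin alpha 6 beta 1 is a laminin receptor and alpha 5 beta 1 the classical fibronectin receptor. Ccn2, Fndc1 and Prelp of the further glycoproteins and proteoglycans were listed as lower (10.3% of those measured). Bsg, Ctsb and Spock2 of the other proteases and inhibitors were also listed as lower (11.5%). Both shares were near that of all genes. Of the fibroblast markers, Cd248 (-0.51) and Col1a1 (-0.34) were listed (16.7%), both lower. Of the smooth muscle and pericyte markers 27.3% were listed, with Acta2 (-1.20) and Des (-0.20) lower and Kcnj8 (0.32) higher. Of the leukocyte markers 1 was listed (9.09%), Cx3cr1, as higher (1.14), and of the cardiomyocyte markers 4 were lower and 1 higher (41.7% listed). Their part in the members' values was not tested.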

How the data were processed

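Whole hearts were measured by bulk RNA sequencing, and each heart is 1 sample. From strand-specific libraries, the authors obtained single-end reads (50 bases), trimmed with FastqCleaner and aligned to mm10 with bowtie2, and the submitters' processing notes also name DESeq2. The counting software, its use of strand or of reads with several matches, and versions were named in no source used here. The table of the AAV hearts holds log2 CPM by Ensembl transcript as the authors deposited it (25990 transcripts, 275 of them without a symbol and left out). Read counts were recovered from these values for 100% of them, within 0.001 of a whole read, with a prior count of 1. The plan had assumed counts for that table, so limma on the log2 values replaced a count test. The deposited table of KO and WT hearts holds raw read counts of 2372 RefSeq transcripts, all with an unadjusted p under 0.05 in the table. The deposited signal column, the authors' mean of normalized counts, gave the factor of each library, and the deposited score column, the authors' sum of RPKM, gave the library totals. Columns of the authors' own fold changes and p-values were not used, nor were 14 columns of per-sample TMM or RPKM values. The columns for KO and WT carry a group and a number (1 to 4 for KO and 1, 3 and 4 for WT) that no label ties to an animal, and libraries are called A to D and A to C in the order of these numbers.

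The transcript with the highest mean stood for each symbol. AAV-CTRP9 hearts were compared with AAV-Luc hearts by limma 3.58.1 with an intensity trend over 13219 symbols and Benjamini-Hochberg adjustment at 0.05, and KO with WT by the quasi-likelihood fit of edgeR 4.0.16 over 1230 listed symbols, as a description, in R 4.3.3. DESeq2 1.42.0 was an alternative. Scripts were tested on simulated data. No 2 libraries of a group agreed within counting noise. P-values of limma weigh the difference between groups against the spread between these hearts, moderated by the intensity trend over all genes. Named were members past the adjusted threshold or, up to 15 per direction, with an unadjusted p under 0.05, the 12 members with the highest mean CPM, Fn1, Eln and Thbs1, and every listed member for KO. Other genes given with values were chosen after these were seen. Members and gene lists were chosen with earlier results of these data known. Sequences and their coordinates are from RefSeq on GRCm38.p6, and gene positions and lengths from GENCODE M21. Figures were drawn with matplotlib 3.10.9.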

Additional observations from a re-analysis of the deposited data

Results flagged for a closer look

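In each group of 4 hearts, 1 value was set against the others by Dixon's criterion, which flags about 1 in 20 groups by chance, over 70 groups (62 members in AAV-CTRP9 hearts and 8 in KO hearts). Of these, 4 held a sample far from the others. Adamts12 had 0.756 CPM in AAV-CTRP9 heart 1, against 1.26 to 1.31 CPM in the other AAV-CTRP9 hearts. Adamtsl2 had 3.75 CPM in AAV-CTRP9 heart 2, against 5.30 to 5.61 CPM in the others, and Dcn had 185 CPM in AAV-CTRP9 heart 3, against 197 to 198 CPM in the others. Adamts7 had 376 normalized counts in the library KO A, against 291 to 297 in the other KO libraries. The groups of 3 hearts, which hold the high values of Fn1, Eln and Thbs1 in AAV-Luc heart 3, are too small for this criterion.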

How the results depend on the processing

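The labels give no replicate numbers that groups share, but the columns of KO and WT share the numbers 1, 3 and 4. Deviations of genes from the group means correlated at 0.09, -0.17 and -0.40 in libraries with the same number, so the numbers were not taken to pair the libraries. With the number as a replicate block, added after the data were seen, 6 members stayed lower and 2 higher in KO hearts, with a median of -0.27, and no member changed sign. The 16 members at an unadjusted p under 0.05 kept their direction under all 16 alternatives, and 7 of them (Mmp2, Bgn, Nid1, Sparc, Adamts2, Lamb2 and Lama5) also kept an unadjusted p under 0.05 in all 16. Against 2 genes past the adjusted threshold in all and 0 members, DESeq2 on recovered reads called 61 genes and 2 members, the likelihood ratio test of edgeR, added after the data were seen, 81 genes and 2 members, and the removal of the trend with GC content, also added then, 5 genes. Library totals as the only scaling called 1 gene, and limma without the trend and reads summed over transcripts 0. Members at an unadjusted p under 0.05 were 12 lower and 4 higher in limma, 13 and 4 in the quasi-likelihood test of edgeR, and 8 and 4 in limma without the trend. Genes higher at an unadjusted p under 0.05 numbered 569 in limma, 365 in DESeq2, 263 with library totals and 378 in the likelihood ratio test, and with library totals 2 members, Lamb2 and Timp4, were higher without overlap, not 4, and 10 lower, not 7, while 807 genes and 16 members were lower at an unadjusted p under 0.05, not 577 and 12. With 1 heart left out, 0 to 150 genes and 0 to 2 members passed the adjusted threshold, the 150 and the 2 without AAV-Luc heart 1, 312 to 1076 genes were higher and 437 to 783 lower at an unadjusted p under 0.05, and so were 4 to 7 and 7 to 14 members. The members' median log2 fold change lay between -0.17 and -0.09 in all alternatives. With 1 heart left out, Adamtsl5, at -0.01 with all hearts, ranged from -0.13 (without AAV-Luc heart 3) to 0.047 (without AAV-Luc heart 2), and it was 0.04 without AAV-Luc heart 1. In the KO comparison, the split of 6 lower and 2 higher members held under all alternatives, and the members' median was -0.34 to -0.23 with 1 library left out. The deposited data limit the KO comparison to listed genes, and Thbs1, near 2 CPM, and Fmod, with 3 to 26 reads a library, are the least precise of the named members.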
